A study of Mus musculus with 10 samples.

Results

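The GIMAP family (GTPases of immunity-associated proteins) was described across 5 groups of primary mouse spleen lymphocytes. Its members were the genes of the deposited table of read counts named Gimap1, Gimap3, Gimap4, Gimap5, Gimap6, Gimap7, Gimap8 and Gimap9, which are 8 of 56893 genes. The groups were T cells with the guide sgRNA-P1, mock T cells, B cells with sgRNA-P1, B cells with sgRNA-P2 and mock B cells. The guides act by CRISPR interference, in which a guide RNA brings a Cas9 protein that cannot cut DNA to a promoter and so represses it. They were aimed at promoters of Pou2f1, which encodes the octamer-binding factor Oct-1: sgRNA-P1 is labelled for promoter P1 and sgRNA-P2 for promoter P2. The sources used here state nothing of the strain, age or background genotype of the mice, the culture, the way cells were selected or how long they carried the guides. Each group has 2 columns labelled as replicates, but all genes with reads matched 1 count divided in a fixed proportion to within 1 read. Both columns of each group thus differed by less than sampling noise and were counted as 1 sample, so each group is 1 library of poly(A) RNA.

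GIMAP proteins are GTP-binding proteins of lymphocytes, related to the septins, and several of them sit on the membranes of organelles. They are known for their part in the survival and homeostasis of mature lymphocytes. In the BB rat a truncated Gimap5 leaves the animal short of T cells, and in mice loss of Gimap1 or Gimap5 depletes peripheral lymphocytes.

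All 8 genes lie together on chromosome 6. In the deposited coordinates they span positions 48624168 to 48747785, or 124 kb, of the build that the submitters' processing notes name for mouse (mm39). Along the chromosome the order is Gimap8, Gimap9, Gimap4, Gimap6, Gimap7, Gimap1, Gimap5 and Gimap3. Gimap6 and Gimap3 are on the minus strand and the other 6 are on the plus strand.

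RefSeq promoter windows on GRCm38.p6, an older build than that of the deposited coordinates, were found for all 8 members, with 2 windows for Gimap8. Each window is 300 bases long and runs from upstream of the annotated start to just inside the gene. The windows of the 3 members past 1.5-fold higher in mock T than in mock B cells, and of Gimap6, whose level in those 2 libraries was close, are shown 5′ to 3′ along the strand of the gene. Capitals mark matches, on either strand, to the ETS core GGAAGT, the RUNX core TGTGGT and the TCF1 and LEF1 core CTTTGA (there as the reverse complement). No matches overlapped.
Gimap3 (chr6:48770802-48771101, minus strand): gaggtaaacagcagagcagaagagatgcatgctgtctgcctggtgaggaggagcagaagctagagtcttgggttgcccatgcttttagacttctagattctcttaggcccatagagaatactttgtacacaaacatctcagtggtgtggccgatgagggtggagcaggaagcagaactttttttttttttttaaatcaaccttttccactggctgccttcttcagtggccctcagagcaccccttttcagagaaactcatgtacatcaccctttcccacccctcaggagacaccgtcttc
Gimap4 (chr6:48684328-48684627, plus strand): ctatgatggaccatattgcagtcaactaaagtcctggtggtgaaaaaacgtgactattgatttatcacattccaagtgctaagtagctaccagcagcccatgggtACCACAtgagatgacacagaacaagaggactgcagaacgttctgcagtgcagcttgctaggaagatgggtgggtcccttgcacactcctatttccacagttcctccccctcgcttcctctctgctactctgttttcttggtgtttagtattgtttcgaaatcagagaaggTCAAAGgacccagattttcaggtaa
Gimap9 (chr6:48675885-48676184, plus strand): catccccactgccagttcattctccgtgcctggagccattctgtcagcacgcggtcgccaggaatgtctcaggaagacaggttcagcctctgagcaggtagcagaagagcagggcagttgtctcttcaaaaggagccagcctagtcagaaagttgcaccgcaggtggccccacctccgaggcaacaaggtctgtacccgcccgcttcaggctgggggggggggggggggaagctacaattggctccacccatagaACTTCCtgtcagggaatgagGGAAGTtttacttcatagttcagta
Gimap6 (chr6:48708195-48708494, minus strand): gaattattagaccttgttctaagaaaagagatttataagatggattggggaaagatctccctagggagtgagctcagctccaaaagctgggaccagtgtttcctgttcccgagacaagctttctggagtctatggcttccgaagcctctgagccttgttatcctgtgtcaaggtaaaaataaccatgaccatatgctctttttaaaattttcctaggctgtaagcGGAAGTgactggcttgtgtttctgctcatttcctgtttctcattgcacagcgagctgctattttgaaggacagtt

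The window of Gimap3 held none of the motifs searched. That of Gimap4 held 1 RUNX core and 1 TCF1 and LEF1 core, that of Gimap9 held 2 ETS cores and that of Gimap6 held 1 ETS core. Across the family the ETS core was in the windows of 4 of 8 genes (Gimap1, Gimap5, Gimap6 and Gimap9), and in 23.8% of 32851 mouse promoter windows of the same length. The RUNX core was in those of Gimap1, Gimap4 and Gimap7, against 16.8% of all windows, and the TCF1 and LEF1 core in those of Gimap4 and Gimap7, against 16% of all windows. The octamer ATGCAAAT, the motif that Oct-1 binds, was in 0 of 9 GIMAP windows and in 1.74% of all windows. These are matches of letters, and a window with no match says only that these letters are not in it.

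The T cell libraries held 39352816 (sgRNA-P1) and 71858511 (mock) reads, and the B cell libraries 49066261 (sgRNA-P1), 28118839 (sgRNA-P2) and 33842813 (mock) reads. Levels are given in CPM, reads relative to the library total after TMM scaling, where 1 gene is compared between libraries, and per kilobase of exon as well (RPKM) where genes are compared with each other. Of 12 T cell markers, 10 were under 1 CPM in each of the B cell libraries, where Cd3e (2 libraries), Cd3d and Trbc2 (1 library each) had no read. The 12 markers summed to 5803 and 5880.3 CPM in T cells, and to 49.7 to 51.0 CPM in B cells, of which Lck made up 45.4 to 47.0 CPM. The 10 B cell markers summed to 361 and 383 CPM in T cells, of which Ighm made up 321 and 340 CPM. They summed to 19705 to 20091 CPM in B cells, and 4 of the 10 were under 1 CPM in T cells. Markers of NK cells summed to 56.4 and 58.9 CPM in T cells and 1.54 to 1.957 CPM in B cells, those of plasma cells to 14.1 and 14.2 CPM in T cells and 121 to 131 CPM in B cells, and those of myeloid cells to at most 1.24 CPM in T cells and 8.22 to 9.70 CPM in B cells. Klrd1 made up 50.9 CPM of the NK cell sum in mock T cells and 53.0 CPM in T cells with sgRNA-P1. Every other NK cell marker was at most 3.58 CPM there. Prdm1 made up 11.4 CPM of the plasma cell sum in mock T cells and 11.3 CPM in T cells with sgRNA-P1. Dendritic, erythroid, platelet, endothelial and stromal markers summed to at most 6.64 CPM per list in any library. The part of these other cells in the GIMAP levels was not tested.

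The GIMAP genes were abundant in both cell types, and the mixture of members was different. Their summed level was 3905 CPM in T cells with sgRNA-P1 and 3909 CPM in mock T cells, against 2685 CPM in B cells with sgRNA-P1, 2677 CPM in those with sgRNA-P2 and 2623 CPM in mock B cells. Both T cell libraries lay above all 3 B cell libraries, and the share of all genes that did so is not given here. Per length, Gimap3 led in T cells and Gimap6 in B cells. Gimap3 made up 34.6% of the summed RPKM of the family in mock T cells and 18.3% in mock B cells, while Gimap6 made up 20.9% in mock T cells and 35.2% in mock B cells. In bulk RNA, fewer cells of a type that express a gene and less RNA per cell cannot be told apart.

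**Figure D1:**
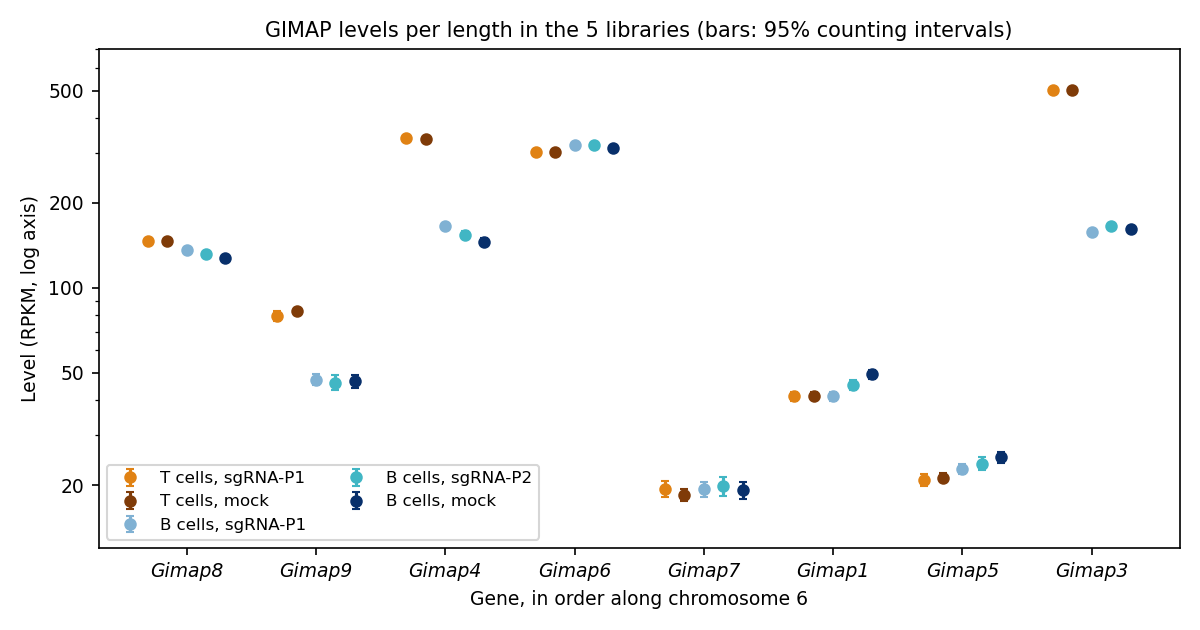
Level of each GIMAP gene per length (RPKM, log axis) in the 5 libraries, in order along chromosome 6, with exact Poisson 95% intervals as bars. Gimap3, Gimap4 and Gimap9 stand higher in both T cell libraries than in the 3 B cell libraries, while Gimap6 lies between 304 and 321 RPKM throughout.

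In mock T cells the order of levels per length was Gimap3, Gimap4, Gimap6, Gimap8, Gimap9, Gimap1, Gimap5 and Gimap7. The level of Gimap3 was 502 RPKM, rank 58 of the 23786 genes with reads in that library, and that of Gimap7 was 18.4 RPKM, rank 2748. Between them stood Gimap4 at 336 RPKM, Gimap6 at 304, Gimap8 at 147, Gimap9 at 82.7, Gimap1 at 41.5 and Gimap5 at 21.3 RPKM. The counting intervals of neighbours in this order did not overlap. The same order held in T cells with sgRNA-P1, where those of the last pair, Gimap5 (20.9 RPKM) and Gimap7 (19.4 RPKM), overlapped.

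In mock B cells the order was Gimap6, Gimap3, Gimap4, Gimap8, Gimap1, Gimap9, Gimap5 and Gimap7. Gimap6 stood at 312 RPKM, rank 105 of 21446 genes with reads, and Gimap3 at 162 RPKM, rank 222. Gimap4 followed at 145 RPKM and Gimap8 at 127 RPKM. Gimap1 (49.4 RPKM) and Gimap9 (46.6 RPKM) had overlapping counting intervals, and their order was the reverse in both guide libraries. Gimap5 stood at 25.1 RPKM and Gimap7 at 19.2 RPKM. Gimap4 exceeded Gimap3 in B cells with sgRNA-P1, at 165 against 158 RPKM, but not in the other B cell libraries.

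T cells and B cells were compared first in the mock libraries, which are 1 library each, so that comparison has no p-value. A difference was counted where it reached 1.5-fold with at least 5 CPM in the higher library. Of 8 members, 3 passed higher in T cells and 0 lower, while 37% of 10806 genes passed in either direction, 18.4% higher and 18.5% lower. The median log2 fold change, T over B, was 0.08 over the 8 members and 0.01 over all genes tested. After a trend on gene length and GC content was subtracted, these medians were 0.26 and 0.00. The difference between T and B cells was also tested over all 5 libraries with edgeR's quasi-likelihood test. The second term was the guide, either guide against mock, which left 2 residual degrees of freedom. As each group is 1 library, these hold no replicates. They hold the difference between the guides in B cells and that of the guide change between cell types. Spread was also shared across genes, with 12 prior degrees of freedom, so small p-values do not come from replicated groups. In this test 4 members were higher and 2 lower at an adjusted p under 0.05 (Benjamini-Hochberg over 17581 genes). Of those genes 64.2% passed, 32.4% higher and 31.8% lower.

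Gimap3, which in mouse is the close paralogue of Gimap5 and neighbours it, had the largest difference in the family. Its level was 1289 CPM in T cells with sgRNA-P1 and 1294 CPM in mock T cells, against 408, 426 and 418 CPM in B cells with sgRNA-P1, with sgRNA-P2 and mock. The T cell libraries were high and the groups did not overlap. The share of all genes whose T and B cell libraries lay apart is not given here. Such statements, here and for the members below, only describe the members. The mock libraries differed by 3.10-fold, a log2 fold change of 1.63 (counting interval 1.59 to 1.67), which lay at percentile 91.5 of all genes tested. The test over 5 libraries gave a log2 fold change of 1.63 with an adjusted p of 2.1e-13, higher in 2 of 2 T cell libraries.

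Gimap4, whose product is known in mouse T cells for speeding programmed death, was at 624 CPM in T cells with sgRNA-P1 and 616 CPM in mock T cells. In B cells it was at 304 CPM with sgRNA-P1, 284 CPM with sgRNA-P2 and 267 CPM in mock cells. Again the T cell libraries were high and apart from the others. The mock libraries differed by 2.31-fold, a log2 fold change of 1.21 (1.16 to 1.25), and the test over 5 libraries gave 1.14 with an adjusted p of 3.5e-11.

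Gimap9 was at 130.4 CPM in T cells with sgRNA-P1 and 136 CPM in mock T cells, against 77.7, 75.8 and 76.5 CPM in B cells with sgRNA-P1, with sgRNA-P2 and mock. The groups did not overlap. The mock libraries differed by 1.77-fold, a log2 fold change of 0.83 (0.74 to 0.92), and the test over 5 libraries gave 0.79 with an adjusted p of 1.7e-09. With the length and GC trend subtracted, the log2 fold change of the mock libraries was 1.33 for Gimap9, 1.65 for Gimap4 and 1.77 for Gimap3.

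Gimap8, which carries several GTPase domains in 1 protein, was slightly higher in T cells. Its level was 542 CPM in both T cell libraries, against 506, 486 and 470.1 CPM in B cells with sgRNA-P1, with sgRNA-P2 and mock, so the groups lay apart by a small step. The log2 fold change was 0.21 (0.17 to 0.24) in the mock libraries, 0.34 there after the length and GC trend was subtracted, and 0.16 in the test over 5 libraries, with an adjusted p of 0.0103.

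Gimap5, needed in mice for the survival of peripheral T cells, was slightly lower in T cells. Its level was 86.6 CPM in T cells with sgRNA-P1 and 88.3 CPM in mock T cells, against 94.5, 98.8 and 104 CPM in B cells with sgRNA-P1, with sgRNA-P2 and mock. All B cell libraries were above both T cell libraries. The log2 fold change was -0.24 (-0.32 to -0.15) in the mock libraries and -0.19 in the test over 5 libraries, with an adjusted p of 0.0045.

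Gimap1, required in mice by mature T and B cells alike, had 127 CPM in both T cell libraries and in B cells with sgRNA-P1. It had 139 CPM in B cells with sgRNA-P2 and 152 CPM in mock B cells. One B cell library thus overlapped the T cells and the other 2 lay above them. The log2 fold change was -0.25 (-0.32 to -0.18) in the mock libraries, 0.00 between the sgRNA-P1 libraries of T and B cells (-0.08 to 0.08), and -0.15 in the test over 5 libraries, with an adjusted p of 0.0383. By edgeR's test without the mock T library or without the mock B library, the calls of Gimap1, Gimap5 and Gimap8 were lost. Their log2 fold changes were then -0.06, -0.15 and 0.13 without mock T cells and -0.07, -0.16 and 0.13 without mock B cells. Over all alternatives the adjusted p ran from 3e-05 to 0.527 for Gimap1, from 1e-05 to 0.108 for Gimap5 and from 0.00032 to 0.156 for Gimap8.

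Gimap6, known in human and mouse for its link to the autophagy protein Gabarapl2, was at 1061 and 1062 CPM in T cells with sgRNA-P1 and mock T cells. In B cells it was at 1124, 1122 and 1090.5 CPM with sgRNA-P1, with sgRNA-P2 and in mock cells. The T cell libraries were a little below the others. The log2 fold change was -0.04 (-0.06 to -0.01) in the mock libraries and 0.05 after the length and GC trend was subtracted, and it did not pass the test over 5 libraries, with an adjusted p of 0.271 by edgeR.

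Gimap7, whose human protein stimulates the GTPase activity of a relative, GIMAP2, had the lowest level per length in every library. Its level was 45.1 and 42.8 CPM in T cells with sgRNA-P1 and mock T cells, against 44.9, 46.0 and 44.6 CPM in B cells with sgRNA-P1, with sgRNA-P2 and mock. These ranges overlap. The log2 fold change was -0.06 (-0.19 to 0.07) in the mock libraries and 0.17 after the length and GC trend was subtracted, and it did not pass the test over 5 libraries, with an adjusted p of 0.655 by edgeR.

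**Figure D2:**
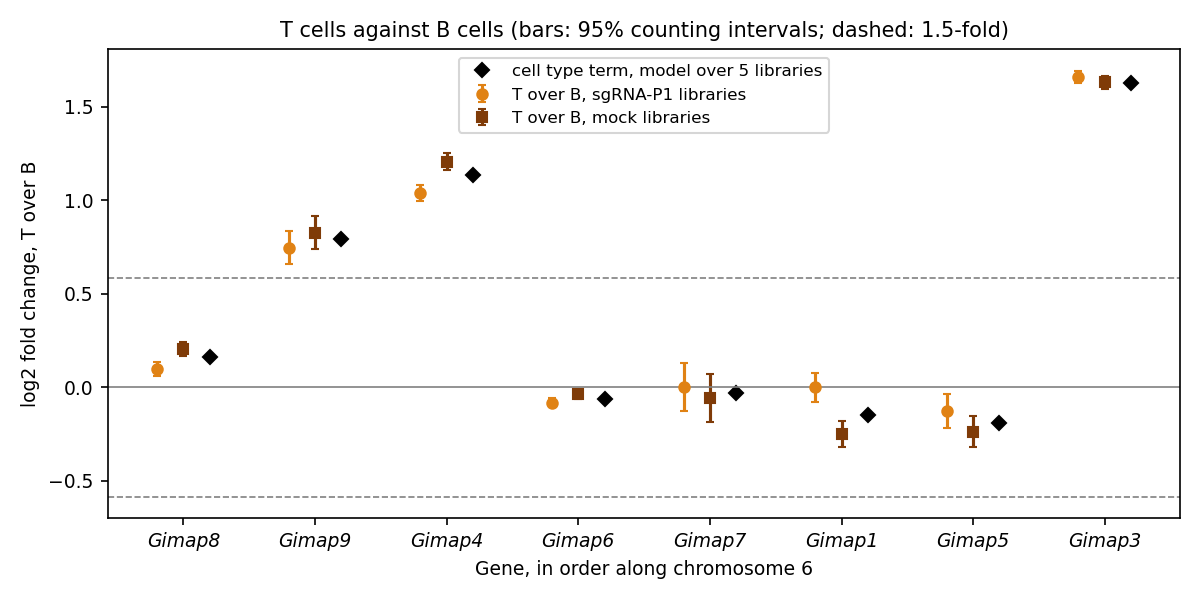
Log2 fold change of each GIMAP gene, T over B cells, in the pair of sgRNA-P1 libraries, in the pair of mock libraries (bars: exact 95% counting intervals) and in the model over 5 libraries. Gimap3, Gimap4 and Gimap9 lie above the dashed 1.5-fold line by all 3 measures, and Gimap1 moves to 0.00 in the sgRNA-P1 pair.

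The genes around the cluster did not share 1 pattern. Of 33 other genes of the table that start within 200 kb of it, 14 reached 1 CPM in a library, with levels of at most 26.0 CPM. On the far side of Gimap3, Tmem176a had 14.96 CPM in mock T cells, against 1.16 CPM in mock B cells, and Tmem176b had 10.7 CPM in mock T cells, against 1.66 CPM in mock B cells. On the side of Gimap8, Repin1, a zinc-finger gene, had 2.35 CPM in mock T cells, against 9.84 CPM in mock B cells. Gm28053, which lies among the members, had 2.32 CPM in mock T cells, against 5.30 CPM in mock B cells. These 4 were past 1.5-fold at 5 CPM. Of the other neighbours at 5 CPM in either mock library, Zfp862-ps, Lrrc61, Zfp775, Gimap1os and Gm44226, none was past it, with log2 fold changes, T over B, of -0.58 to 0.43. Sspo, Gm7887, Gm53041, AI854703 and 4833403J16Rik were under 5 CPM in both mock libraries.

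**Figure D3:**
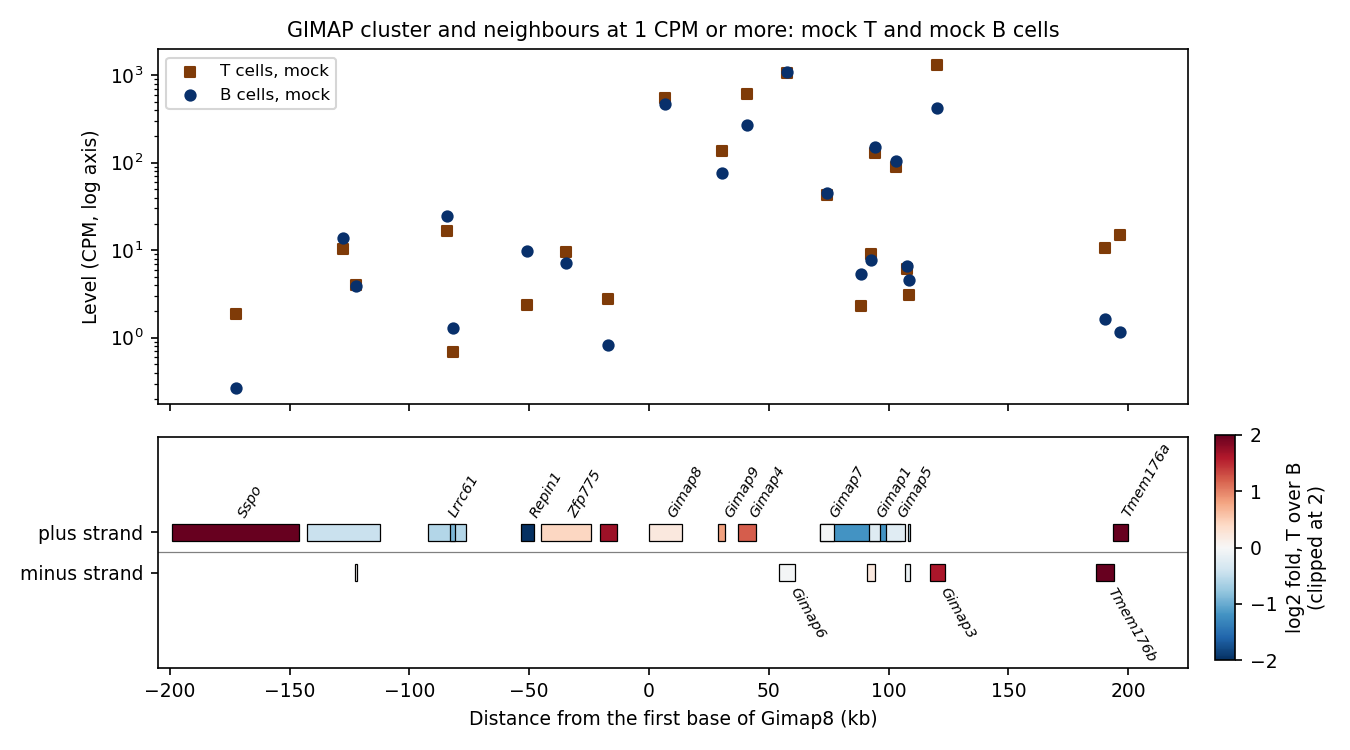
Level (CPM, log axis) in mock T and mock B cells of the GIMAP genes and of the 14 neighbours at 1 CPM or more, above a map of the genes by strand, coloured by log2 fold change, T over B. The 8 members stand above all neighbours, whose highest level is 26.0 CPM in any library, and Gimap3 and the Tmem176 genes on the right are red while Repin1 on the left is blue.

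Some members share sequence with other genes, and the sources used here do not give how reads that fit several places were counted, or whether by strand. Gimap1 shares 1107 bases, or 36.0% of its exons, with the antisense gene Gimap1os, which had 9.06 and 9.07 CPM in T cells and 6.72 to 7.82 CPM in B cells. Gm28053, on the same strand, shares exons with Gimap1, Gimap5 and Gimap7. On GRCm38 transcripts, 7.52% of the 50-base windows of Gimap3 occur also in Gimap5, and 4.53% of those of Gimap5 in Gimap3, while Gimap4, Gimap8 and Gimap9 shared none with another gene. The small differences of Gimap1, Gimap5 and Gimap7 are therefore uncertain.

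Pou2f1 itself had 65.7 CPM in T cells with sgRNA-P1, against 138 CPM in mock T cells. In B cells its level was 91.4 CPM with sgRNA-P1 and 86.8 CPM with sgRNA-P2, against 157 CPM in mock cells. It was thus lower in each guide library than in its mock, with log2 fold changes of -1.06, -0.78 and -0.85 in that order. Pou2f1 overlaps Cd247, a T cell gene on the opposite strand, so its level in T cells is uncertain.

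No GIMAP gene reached 1.5-fold in any guide comparison. In T cells 0 of 8 members passed while 0.11% of 10001 genes did. In B cells 0 of 8 passed with sgRNA-P1, while 0.735% of 10067 genes did, and 0 of 8 with sgRNA-P2, while 0.268% of 10071 genes did. Between the guides in B cells, sgRNA-P1 against sgRNA-P2, 0 of 8 passed, while 0.397% of 10068 genes did. Both guide comparisons in B cells rest on the same mock library.

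In T cells all 8 members lay within 1.1-fold of mock, as did 86.7% of all genes tested. The log2 fold changes of the members ran from -0.06 for Gimap9 to 0.07 for Gimap7, and all 8 counting intervals included 0. The share of all genes whose intervals did so is not given here. The sign of the values nearest to 0 turned with the scaling.

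In B cells with sgRNA-P1, 5 of 8 members lay within 1.1-fold of mock, as did 65.1% of all genes tested. Gimap1 had a log2 fold change of -0.26 (-0.33 to -0.18), at percentile 5.69 of all genes tested, and Gimap5 one of -0.14 (-0.23 to -0.05). Gimap4 stood at 0.18 (0.13 to 0.24), at percentile 89.0, Gimap8 at 0.11 (0.06 to 0.15) and Gimap6 at 0.04 (0.02 to 0.07). The counting intervals of these 5 members left out 0, while those of Gimap3, Gimap7 and Gimap9 included it. The share of all genes whose counting intervals left out 0 is not given here, so this count only describes the members. These intervals cover the counting of reads and not the spread between samples. After the length and GC trend was subtracted, the log2 fold changes were -0.17 for Gimap1, 0.12 for Gimap4 and 0.03 for Gimap8.

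In B cells with sgRNA-P2 all 8 members lay within 1.1-fold of mock, as did 79.9% of all genes tested. Gimap1 had a log2 fold change of -0.12 (-0.21 to -0.04), Gimap5 one of -0.07 (-0.18 to 0.03) and Gimap4 one of 0.09 (0.02 to 0.15). The guides themselves, sgRNA-P1 over sgRNA-P2, differed by -0.13 (-0.22 to -0.05) for Gimap1 and by 0.10 (0.04 to 0.15) for Gimap4, and all 8 members were within 1.1-fold, as were 72.7% of all genes tested. With the length and GC trend subtracted, these 2 differences were -0.07 and 0.03.

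**Figure D4:**
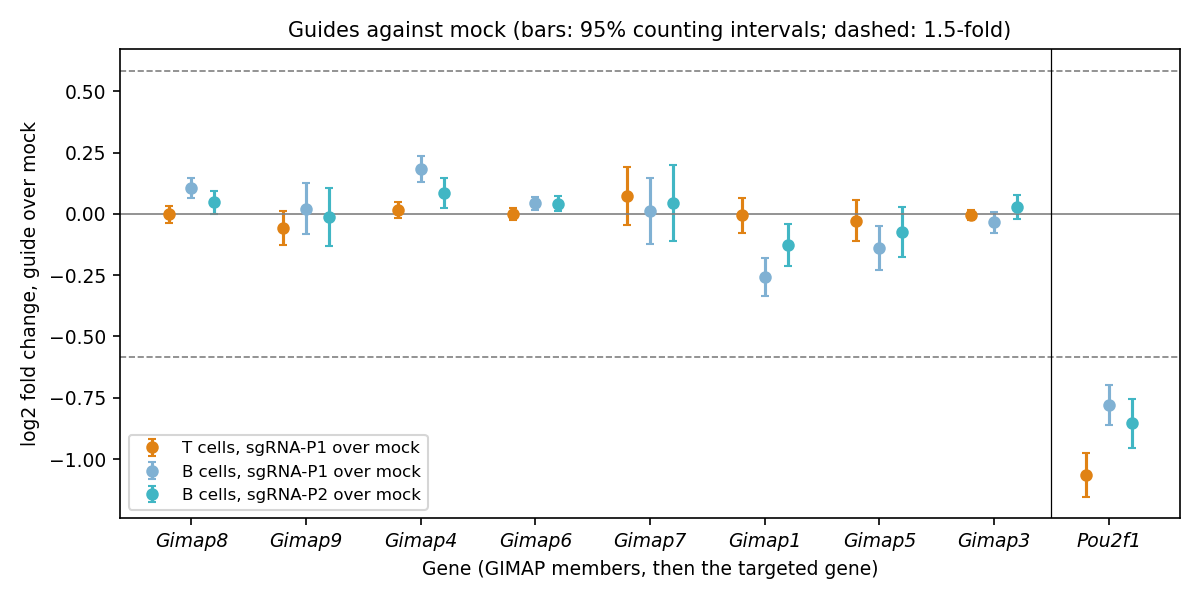
Log2 fold change, guide over mock, of the 8 GIMAP genes and of Pou2f1 in the 3 guide comparisons, with exact 95% counting intervals as bars. All GIMAP values lie between -0.26 and 0.18, inside the dashed 1.5-fold lines, while Pou2f1 lies between -1.06 and -0.78.

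On the log2 scale, the sgRNA-P1 fold change of T cells minus that of B cells was 0.25 for Gimap1 (counting interval 0.15 to 0.35), -0.17 for Gimap4 (-0.23 to -0.11) and -0.11 for Gimap8 (-0.16 to -0.05). It was 0.11 for Gimap5 (-0.01 to 0.23) and -0.04 for Gimap6 (-0.08 to -0.01). The intervals of Gimap3, Gimap7 and Gimap9 included 0, as did that of Gimap5. When scaled by total reads, the difference was -0.06 for Gimap8 and 0.00 for Gimap6. With the length and GC trend subtracted, it was -0.04 for Gimap8. Values of this difference for all genes are not given here. With 1 library per group this difference was not tested. The edgeR quasi-likelihood test of guide against mock over the 5 libraries joined both guides in 1 level and fitted 1 change for T and B cells. It thus did not test either guide within 1 cell type. In it 0 of 8 members passed, and 5 of 17581 genes did, or 0.0284%. At an unadjusted p under 0.05 there were 0 members and 427 genes, and the lowest unadjusted p of a member was 0.0821 (Gimap1, log2 fold change -0.11). DESeq2 called 0 members as well, with 0 at an unadjusted p under 0.05. By edgeR's test, Gimap1 had an unadjusted p of 0.0394 with no filter on low counts, 0.0221 without mock T cells (log2 fold change -0.19) and 0.0257 without T cells with sgRNA-P1 (-0.19). Its log2 fold change was -0.06 without B cells with sgRNA-P1 and -0.01 without mock B cells, and its adjusted p was 0.87 or more in all of these alternatives.

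Of the 5 listed genes whose products are tied to GIMAP proteins, 2 passed 1.5-fold higher in T cells and 0 lower, while 18.4% of all genes tested were higher and 18.5% lower. Bcl2l1, which encodes the anti-apoptotic protein Bcl-xL, had 22.4 CPM in mock T cells, against 4.74 CPM in mock B cells, a log2 fold change of 2.23. Bcl2, the founding anti-apoptotic gene, had 288 CPM in mock T cells, against 176 CPM in mock B cells, a log2 fold change of 0.71. Gsk3b, a kinase, had 109 CPM in mock T cells, against 84.1 CPM in mock B cells, a log2 fold change of 0.37. The median over the list was 0.37, and that over all genes tested was 0.01. These 3 were higher in the test over 5 libraries, as were 32.4% of all genes in it, and Bax, which promotes death, and Gabarapl2 did not pass it.

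Of 16 listed genes of lymphocyte quiescence and homeostasis, 8 were past 1.5-fold higher in T cells and 1 lower, with a median log2 fold change of 0.45 (all genes tested: 18.4% higher, 18.5% lower, median 0.01). The test over 5 libraries called 9 higher and 4 lower, while it called 32.4% of all genes higher and 31.8% lower. Il7r, the receptor chain for the survival cytokine IL-7, had 639.97 CPM in mock T cells, against 0.267 CPM in mock B cells. Tcf7 (TCF1) had 1727 CPM in mock T cells, against 1.42 CPM in mock B cells, and its relative Lef1 had 414 CPM in mock T cells, against 8.98 CPM in mock B cells. Bach2, a repressor known in both cell types, was the 1 gene past the rule that was lower, at 156 CPM in mock T cells, against 291 CPM in mock B cells. Of 10 listed other immune GTPases, 5 were past 1.5-fold higher and 2 lower, with a median of 0.83, beside the same 18.4% and 18.5% of all genes. The test over 5 libraries called 7 of them higher and 3 lower, beside 32.4% and 31.8% of all genes. These genes of defence against intracellular pathogens were led by Igtp, at 152 CPM in mock T cells, against 31.4 CPM in mock B cells. Gbp2 had 84.5 CPM in mock T cells, against 22.8 CPM in mock B cells, Gbp7 had 144 CPM in mock T cells, against 47.5 CPM in mock B cells, and the 2 lower genes were Gbp3 and Mx1. Reads shared between Gbp copies were not examined. All 3 lists were chosen with earlier results of these data known, so their counts only describe the listed genes. Of the genes of these 3 lists at 5 CPM, none passed 1.5-fold under a guide, beside 0.11 to 0.735% of all genes. In B cells 14 of the 16 quiescence genes were at 5 CPM with either guide, and 4 of the 5 GIMAP partners with sgRNA-P1. No listed gene passed the test of guide against mock, beside 0.0284% of all genes.

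Over the 5 libraries, the genes whose profile was nearest to that of the summed GIMAP reads were Ada, Rac1, Rbl1, Rbl2 and Erap1, out of 10957 candidates. Their root mean square differences from it were 0.01 to 0.02 on the log2 scale, after each profile was centred on its mean. The counting error of these differences was not computed, and Ada, the nearest, had only 5.60 CPM in mock B cells and 8.47 CPM in mock T cells. Rac1, for example, had 205 and 212 CPM in T cells, and 142, 142 and 140.4 CPM in B cells with sgRNA-P1, with sgRNA-P2 and mock. That both T cell libraries lay above the B cell libraries for Rac1 follows from its choice by profile.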

How the data were processed

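Poly(A) RNA was sequenced from spleen T and B cells. The deposited file holds read counts as whole numbers, which the authors did not normalize, for 56893 genes in 10 columns, with each gene's coordinates and its length in bases. HISAT2, featureCounts and the builds hg38 and mm39 are named per the submitters' processing notes. The sources used here do not give versions, strand setting, read pairing or the handling of reads with several matches. Read totals were 28118839 to 71858511 per summed library.

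The columns of each group were summed and counted as 1 library, since the mean chi-square per gene between them was 0.00229 to 0.00283. Counts were scaled by TMM (edgeR 4.0.16, R 4.3.3), and log2 fold changes were taken of CPM after adding 1 read, with 1 library per group and so no p-value. RPKM used the deposited length. Exact 95% intervals were Poisson for levels and conditional binomial for fold changes (scipy 1.17.1). Intervals of the T minus B difference used a normal approximation on the log2 scale. All were computed on halved totals: 1 read was added to each total with reads, which was then divided by 2 and rounded down. This was done because, with that read added, 72.0 to 74.8% of totals under 10 reads were even. All of these intervals cover counting error only. The 5 libraries were also fitted with edgeR's quasi-likelihood test on genes kept by filterByExpr, and with DESeq2 1.42.0 as an alternative. The terms were cell type and guide, with both guides as 1 level. The p-values of this model rest on differences between these libraries beyond its 2 terms and on spread shared across genes. They do not rest on replicates of a group, and no source names separate animals for these libraries. This model and the interval method were tested on simulated data. GC content came from GENCODE M21 transcripts (48826 of 56893 symbols and 8 of 8 members matched), and promoters from RefSeq on GRCm38.p6.

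The members, gene lists and rules were chosen with earlier results of these data known. Named are the 8 members, neighbours within 200 kb at 1 CPM, the 3 genes of each list with the largest difference between mock T and mock B cells, the 5 nearest profiles and Pou2f1. Bach2, Gbp3, Mx1, Bax, Gabarapl2 and Cd247 were named after their values were seen. The alternatives were other scalings, priors, filters, fold rules, single columns, a length and GC trend, other model terms, and each library left out.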

Additional observations from a re-analysis of the deposited data

How the results depend on the processing

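No paired analysis was possible because the columns of a group are 1 library divided in a fixed proportion, so a fit with the replicate number as a block was not run. No called value changed direction under any alternative. The log2 fold change of the summed GIMAP reads, mock T over mock B cells, was 0.58, and it was 0.74 with a trend on length and GC content removed and 0.54 in the pair of sgRNA-P1 libraries, an alternative chosen after seeing the data. Scaled by total reads, the summed change was 0.0173, against -0.0015 with TMM, for sgRNA-P1 in T cells, and 0.0071, against 0.0340, for sgRNA-P1 in B cells. It was -0.0200, against 0.0043, for sgRNA-P1 over sgRNA-P2 in B cells, and 0.0102, against -0.0355 (counting interval -0.0570 to -0.0139), for the T minus B difference. So 3 of these 4 values, none of them called, turned sign. These shifts follow from the TMM factors, which scaling by total reads leaves out. The factors were 1.0209 (sgRNA-P1) and 1.0077 (mock) in T cells. In B cells they were 0.9790 (sgRNA-P1), 0.9956 (sgRNA-P2) and 0.9974 (mock). Why the factors differ was not tested.

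Counts of all genes past the fold rule moved by the construction of each setting. With a minimum of 1 CPM, 20 CPM, no minimum, or a 2-fold rule, they were 6085, 2524, 13506 and 2658 for T over B cells, 277, 6, 6561 and 6 for sgRNA-P1 in T cells, and 565, 15, 6220 and 6 for sgRNA-P1 in B cells. For sgRNA-P2 in B cells they were 524, 2, 7125 and 3, and for sgRNA-P1 over sgRNA-P2 they were 510, 6, 6436 and 6. With the length and GC trend subtracted, 32 genes passed for sgRNA-P1 in B cells and 23 for sgRNA-P1 over sgRNA-P2.

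In the model over 5 libraries, 1 member in place of 2 was lower in T cells with DESeq2, with cell type as the only term, and with total-count scaling, and 0 to 2 with each library left out in turn, which leaves 1 T cell library in some fits, assumed to vary like the others. The member lost in the first 3 was Gimap1. Guide against mock called 32 genes with no filter, 2 with total-count scaling and 3 to 18 with each library left out, against 5 as reported, and no member in any of them.

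Each group is 1 library. The counting intervals cover reads only, and the spread between animals or cultures was not measured in these data. Differences under 1.1-fold in the guide comparisons turned sign with the scaling in part of the members.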
